A study of Mus musculus with 11 samples.

Results

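The sites described here are the places next to a single gene where an HA-tagged ZFTA-RELA fusion protein was found in 2 mouse tumour cell lines. They are HA peaks of line M00002 on chromosomes 1 to 19 and X that overlapped an HA peak of line M00001 by at least 1 bp, overlapped no IgG peak of either line, and lay within 1 kb of an end of exactly 1 protein-coding gene. Of 29937 HA peaks of M00002, 5074 overlapped an HA peak of M00001, 4514 of those were free of IgG, 1691 of those lay within 1 kb of at least 1 gene, and 1368 met the whole rule. They are called shared one-gene sites below. The sites were chosen by the HA and IgG peaks themselves, so HA values are given as a description and are not tested.

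The study profiled chromatin by CUT&RUN, which sequences the short DNA fragments that a nuclease tethered to an antibody cuts out of permeabilised cells. There were 11 libraries, 1 for each target and line: HA, IgG, p65 and H3K27ac with 2 antibodies (ac4729 and ac647) from M00002, and HA, IgG, Cbp, p300 and Rpb1 with antibodies written S5 and S2 from M00001. Both lines were derived from tumours, each under 1 mouse identifier, were grown on Matrigel in serum-free neural medium with bFGF and EGF, and received no treatment. The HA tag is taken here to sit on the fusion named in the series title, and neither line served as a control without it. No target was repeated within a line, so no value below has a replicate error. Intervals and tests below run over sites, cover counting error only, and compare these libraries. A code of unstated meaning stands in the titles of the Cbp, p300, S5 and S2 libraries and is missing from those of HA and IgG of M00001.

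ZFTA-RELA joins a zinc finger protein, ZFTA, to RELA, the p65 subunit of NF-kappaB, and is the defining fusion of a group of supratentorial ependymomas. RELA carries a DNA-binding domain for kappaB sites and a transactivation domain that recruits the acetyltransferases CBP and p300, which deposit H3K27ac at active promoters and enhancers. RNA polymerase II is phosphorylated on the tail of its largest subunit, Rpb1, at serine 5 near gene starts and at serine 2 during elongation. The labels write S5 and S2 without spelling them out. An antibody to p65 can bind RELA and the RELA part of the fusion, so the p65 library does not tell these apart.

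The sequence under a summit could be read wherever a RefSeq promoter (GRCm38.p6, the assembly of mm10) covered it, and the strongest sites are shown first. The 8 sites below had the highest HA enrichment in both lines among those whose own gene's promoter covered the HA summit of M00002. Each run is 81 bases centred on that summit, on the strand of the gene, 5′ to 3′, and capitals mark every GGGGCC on either strand.
Rbm42 (chr7:30650250-30650330, minus strand): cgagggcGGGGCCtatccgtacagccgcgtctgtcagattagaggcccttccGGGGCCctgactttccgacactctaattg
Zfp687 (chr3:95015606-95015686, minus strand): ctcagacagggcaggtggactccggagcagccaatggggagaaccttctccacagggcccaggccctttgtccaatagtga
Rsph9 (chr17:46144238-46144318, minus strand): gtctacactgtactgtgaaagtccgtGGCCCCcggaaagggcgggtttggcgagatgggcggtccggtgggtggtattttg
Ddost (chr4:138304660-138304740, plus strand): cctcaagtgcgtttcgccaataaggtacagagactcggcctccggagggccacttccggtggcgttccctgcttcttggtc
Zbtb18 (chr1:177442110-177442190, plus strand): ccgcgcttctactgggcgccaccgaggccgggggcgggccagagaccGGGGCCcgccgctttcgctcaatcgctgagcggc
Stk11ip (chr1:75521378-75521458, plus strand): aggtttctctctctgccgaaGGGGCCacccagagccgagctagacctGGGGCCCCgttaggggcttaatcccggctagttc
Mios (chr6:8209034-8209114, plus strand): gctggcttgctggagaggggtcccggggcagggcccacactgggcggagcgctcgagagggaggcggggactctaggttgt
Ier5 (chr1:155099682-155099762, minus strand): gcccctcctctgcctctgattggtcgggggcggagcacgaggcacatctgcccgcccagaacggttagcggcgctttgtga
The word GGGGCC stood in 4 of these 8 windows, in those of Rbm42, Rsph9, Zbtb18 and Stk11ip, and was absent from the windows of Zfp687, Ddost, Mios and Ier5.

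Across all sites with such a window, GGGGCC was found in 236 of 544 windows (43.4%) at shared one-gene sites. It was found in 267 of 1052 windows (25.4%) at HA sites of M00002 that also lay at 1 gene and had no HA peak in M00001. It was found in 191 of 1756 windows of the same length (10.9%) in promoters with H3K27ac (ac4729) and Rpb1 S5 but with no HA or IgG peak. These windows stood at 2 fixed places in each of 878 promoters and were not centred on a summit. The word was picked after the data were seen, from a ranking of all 6-letter words by their count in the shared sites' windows against the promoters without HA, so those counts are a description with no test. GGGGCC ranked 3. It overlaps both words that ranked above it, and it is shown because it was in more windows than either. GGGCCC, at rank 1, stood in 24.1%, 13.5% and 3.30% of the windows of these 3 kinds, and GGGCCA, at rank 2, in 32.5%, 17.9% and 5.35%. Among 8-letter words the highest rank went to GGGGCCAC, with 54 of the windows at shared one-gene sites (9.93%), 31 at the M00002-only sites (2.95%) and 2 in the promoters without HA (0.114%). The M00002-only sites took no part in the ranking, and their shares lay between those of the other kinds for all 3 six-letter words and for GGGGCCAC.

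Since GGGGCC was picked from windows around the same summits, its place near the summits of shared one-gene sites follows in part from that choice and is only described. Of 641 shared one-gene sites with the HA summit inside a promoter, 444 (69.3%) had GGGGCC in that promoter. The nearest copy lay a median of 24 bp from the summit. Of 1223 M00002-only sites with the summit inside a promoter, 595 (48.7%) had the word there, at a median of 37.5 bp. In 20 bp steps, 17.4% of shared one-gene sites with the step inside the promoter had the word in the step centred on the summit. Along the plus strand of the genome, whatever the strand of the gene, the share was 3.83% at −140 bp and 3.79% at 140 bp.

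**Figure D1:**
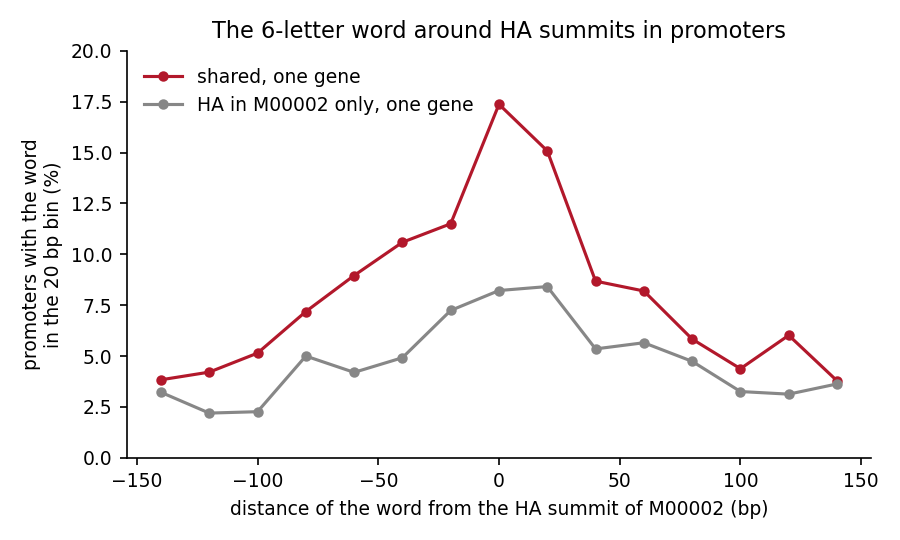
Share of promoters (%) with GGGGCC in each 20 bp step of distance from the HA summit of M00002, with 1 promoter per site. Curves are for shared one-gene sites and for HA sites at 1 gene found in M00002 only. Distance (bp) runs along the plus strand of the genome, whatever the strand of the gene. Both curves are highest next to the summit, with 17.4% for shared one-gene sites in the central step.

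In whole promoters, 250 bases before to 50 bases after the start, GGGGCC was present in 66.3% of 825 promoters under a shared one-gene site, 46.7% of 1497 under an M00002-only site, 31.4% of 878 with H3K27ac and S5 but no HA or IgG, and 29.7% of all 21045 promoters. GGGGCCAC stood in 12.1% of the promoters under shared one-gene sites and in 1.91% of all promoters. The promoters under shared one-gene sites were also richer in G and C, with a median GC content of 65%, against 63.3% under M00002-only sites, 61.7% in the active promoters without HA and 56.7% in all promoters. GGGGCC is itself made of G and C, and the part of base composition in its shares was not tested. The consensus of PLAG1, a zinc finger factor that binds GC-rich DNA and whose sites overlap this word, was present in 48.7% of promoters under shared one-gene sites, 40.6% under M00002-only sites, 29.9% of active promoters without HA and 27.7% of all promoters. In the same order the GC box GGGCGG was present in 83.9%, 77.0%, 67.8% and 46.7%, CCAAT in 52.4%, 47.1%, 39.6% and 38.5%, and the Ets core CCGGAA in 25.5%, 29.6%, 37.2% and 18.9%. The AP-1 sequence TGANTCA was present in 3.39% of promoters under shared one-gene sites, 4.68% under M00002-only sites, 4.33% of active promoters without HA and 7.04% of all promoters.

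The kappaB consensus, to which RELA itself binds, was present in 68 of 825 promoters under a shared one-gene site (8.24%), in 7.48% under M00002-only sites, in 3.19% of active promoters without HA and in 4.86% of all promoters. Within 40 bases of the summit it stood in 20 of 544 windows (3.68%) at shared one-gene sites and 3.71% at M00002-only sites. In the fixed windows of active promoters without HA, which are not centred on a summit, the share was 0.740%. At shared one-gene sites over a promoter the share with GGGGCC was 57.1% in the lowest of 5 equal classes of HA fold enrichment in M00002 and 77.4% in the highest, and the share with kappaB was 5.13% in the lowest and 12.9% in the highest. Among these sites over a promoter, GGGGCC was present at 68.1% of the 634 with a p65 peak and 64.8% of the 142 without one. The kappaB consensus was present at 9.15% and 4.93%.

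At known NF-kappaB genes the kappaB consensus was the more frequent of these sequences. Of 14 shared one-gene sites at genes of the NF-kappaB and chemokine lists, 9 had a promoter window over the HA summit, and 6 of these 9 held a kappaB consensus while 2 held GGGGCC. The 5 below belong to genes described further on, with the kappaB match in capitals.
Nfkbie (chr17:45555553-45555633, plus strand): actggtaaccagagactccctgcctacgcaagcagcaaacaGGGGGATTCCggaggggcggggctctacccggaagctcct
Cyld (chr8:88696844-88696924, plus strand): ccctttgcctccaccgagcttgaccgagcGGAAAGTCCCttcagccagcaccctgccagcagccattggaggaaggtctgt
Cxcl2 (chr5:90903745-90903825, plus strand): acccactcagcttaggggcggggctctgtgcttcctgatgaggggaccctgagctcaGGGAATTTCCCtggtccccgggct
Cxcl1 (chr5:90891145-90891225, plus strand): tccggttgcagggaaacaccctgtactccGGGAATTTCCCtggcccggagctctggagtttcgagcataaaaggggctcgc
Csf1 (chr3:107760573-107760653, minus strand): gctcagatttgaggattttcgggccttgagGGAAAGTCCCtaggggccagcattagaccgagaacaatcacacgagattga
The windows of Cxcl1 and Cxcl2 share the same 11-letter match, and that of Csf1 also holds GGGGCC next to the kappaB match. A match is a description of letters and not a measured binding site.

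The shared one-gene sites fell on 1229 of 21631 protein-coding genes, so 5.68% of genes carried at least 1. There were 1095 genes with 1 site, 129 with 2 and 5 with 3. Because a broad M00001 peak can cover several M00002 peaks, the 1368 sites lay over 1281 HA peaks of M00001. The sites sat close to the gene: 978 lay within 250 bp of the gene end and in 578 the end was inside the peak. Strand could be taken from the RefSeq promoter table for 17274 genes. By strand, 1052 sites were at a gene start, 68 at the far end and 3 at both ends of a short gene, and 245 were at genes without a strand there. Close to the limit of 1 kb, the 3 outermost sites inside it were at Galns, Notch4 and Nr5a1 (1000, 993 and 989 bp), with HA fold enrichment in M00002 of 12.1, 7.76 and 9.18. The 3 nearest shared sites beyond it were at Paip1, Sync and Usp49 (1003, 1006 and 1008 bp), with HA fold enrichment of 9.37, 13.7 and 13.1.

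HA fold enrichment is the authors' value at the peak summit over the peak caller's background, and it is compared here only within a list. At shared one-gene sites it ran from 2.83 to 32.01 in M00002, with a median of 9.17, and from 2.80 to 18.9 in M00001, with a median of 5.64. The values of both lines rose and fell together, with a Spearman correlation of 0.64 over the 1368 sites. This is across sites of 1 library each, and overlapping peaks share their position. In both lines, 1062 sites (77.6%) had a −log10 q of at least 2, while 55 fell below 2 in M00002 and 278 (20.3%) in M00001.

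The genes with the highest HA enrichment in both lines did not belong to 1 pathway. At Rbm42, which encodes an RNA-binding protein, the site over the gene start had an HA fold enrichment of 32.01 in M00002 and 15.7 in M00001. Rsph9, a radial spoke protein of motile cilia, had 31.3 and 15.6. Ddost, a subunit of the oligosaccharyltransferase that glycosylates proteins in the endoplasmic reticulum, had 29.9 and 14.9. Sec61a1, the channel that passes proteins into the endoplasmic reticulum, had 25.8 and 14.1. Sik1, a salt-inducible kinase, had 27.7 and 13.4, Stk11ip, a partner of the kinase LKB1, 28.8 and 13.2, and Mios, a component of the GATOR2 complex of nutrient signalling, 29.4 and 13.1. These sites lay at gene starts or, for Sec61a1 and Sik1, at genes without a strand in the table. The sites of Prkcd (protein kinase C delta, 25.6 and 13.0) and Ccdc159 (a coiled-coil protein, 26.7 and 15.2) lay near the far end of the gene. All 15 genes of this top group had a p65 peak at the site and an S2 peak, and 12 had H3K27ac with ac4729, the exceptions being Pcbp3, Zbtb18 and Ccdc159. Cbp was present at 1 of the 15, that of Ccdc159, p300 at 7 and S5 at 9. A p65 peak lay at 99.6% of sites in the highest of 5 classes of HA fold in M00002. p65 at all 15 therefore does not set this group apart from other sites with strong HA. Over all shared one-gene sites the shares were 79.5% for S2, 71.9% for ac4729, 11.2% for Cbp, 26.9% for p300 and 55.8% for S5.

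**Figure D2:**
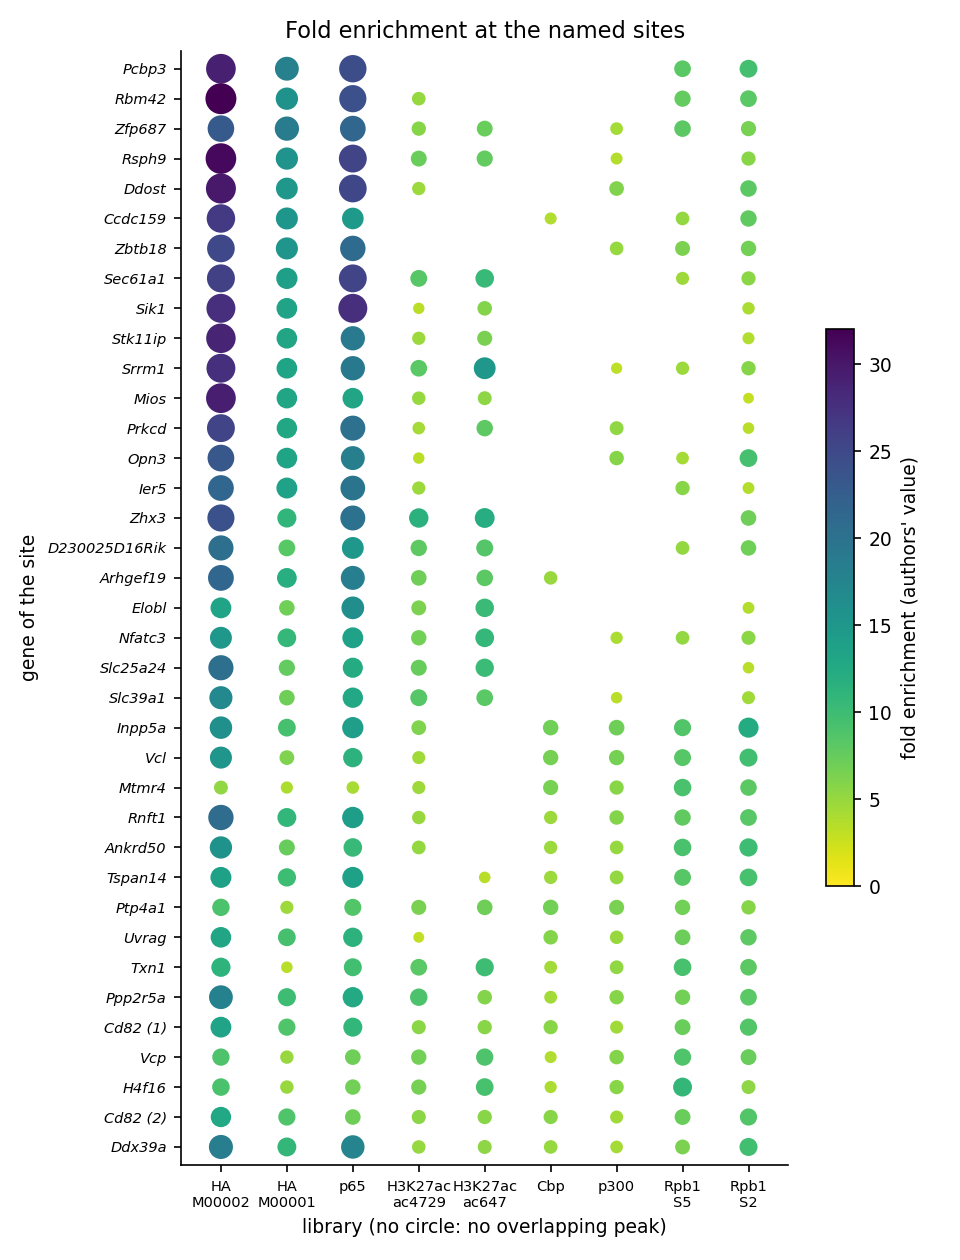
Fold enrichment (authors' values) at the named shared one-gene sites, with the sites highest in HA at the top, then those highest in p65 and H3K27ac, then those highest in Cbp, p300 and polymerase and over all 7 marks. Circle size and colour give the fold in each library, and a missing circle means no overlapping peak. The column of Cbp is empty for most of the upper rows, and Mtmr4 combines low HA values of 5.35 and 3.98 with an S5 value of 9.18.

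Taken 1 mark at a time, peaks of p65, H3K27ac (ac4729), Rpb1 S5 and Rpb1 S2 each overlapped most shared one-gene sites, and Cbp was the least frequent. The share over all 29147 HA peaks of M00002 free of IgG is given beside each share as background. A p65 peak overlapped 1077 of the 1368 sites, or 78.7% (95% Clopper-Pearson interval 76.5 to 80.9), against a background of 32.9%. H3K27ac overlapped 983 sites (71.9%, 69.4 to 74.2) with ac4729, against 36.7%, and 503 (36.8%, 34.2 to 39.4) with ac647, against 21.1%. In M00001, Cbp overlapped 153 sites (11.2%, 9.56 to 13.0), against 2.81%, and p300 overlapped 368 (26.9%, 24.6 to 29.3), against 6.55%. Rpb1 S5 overlapped 763 sites (55.8%, 53.1 to 58.4), against 12.2%, and S2 overlapped 1087 (79.5%, 77.2 to 81.6), against 21.9%. The lists differ in length, from 5847 peaks for Cbp to 29409 for ac4729 on the chromosomes used, so shares of different marks are not levels of those marks.

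Compared with the 3242 M00002-only sites at 1 gene, shared one-gene sites overlapped all 7 marks more often. For p65 the shares were 78.7% and 32.05% (odds ratio 7.84, 95% interval 6.75 to 9.14, adjusted p = 7.74e-191 by Fisher's exact test over sites, two-sided, with Benjamini-Hochberg adjustment over 34 tests). The shares were 71.9% and 43.0% for ac4729 (adjusted p = 8.89e-73), and 36.8% and 15.4% for ac647 (adjusted p = 5.93e-54), both by the same exact test. Cbp, the least frequent mark, was at 11.2% and 2.87% (odds ratio 4.26, exact test, adjusted p = 8.23e-27), and p300 at 26.9% and 8.54% (odds ratio 3.94, adjusted p = 6.69e-55). S5 was at 55.8% and 29.5% (exact test, adjusted p = 1.65e-61) and S2 at 79.5% and 52.5% (adjusted p = 2.38e-68). Cbp, p300, S5 and S2 were measured only in M00001, the line in which the M00002-only sites had no HA peak. For these marks a difference between lines cannot be told apart from a difference between sites. The shared sites had higher and wider HA peaks, with a median fold in M00002 of 9.17 against 4.97 and a median width of 216 bp against 127 bp. Within 5 equal-sized classes of HA fold, which narrow its range without matching it, the odds ratio was 2.67 for p65, 2.16 for ac4729 and 2.03 for ac647, and all 7 marks stayed past the threshold of 0.05 for the adjusted p (Cochran-Mantel-Haenszel test, n = 1368 and 3242).

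**Figure D3:**
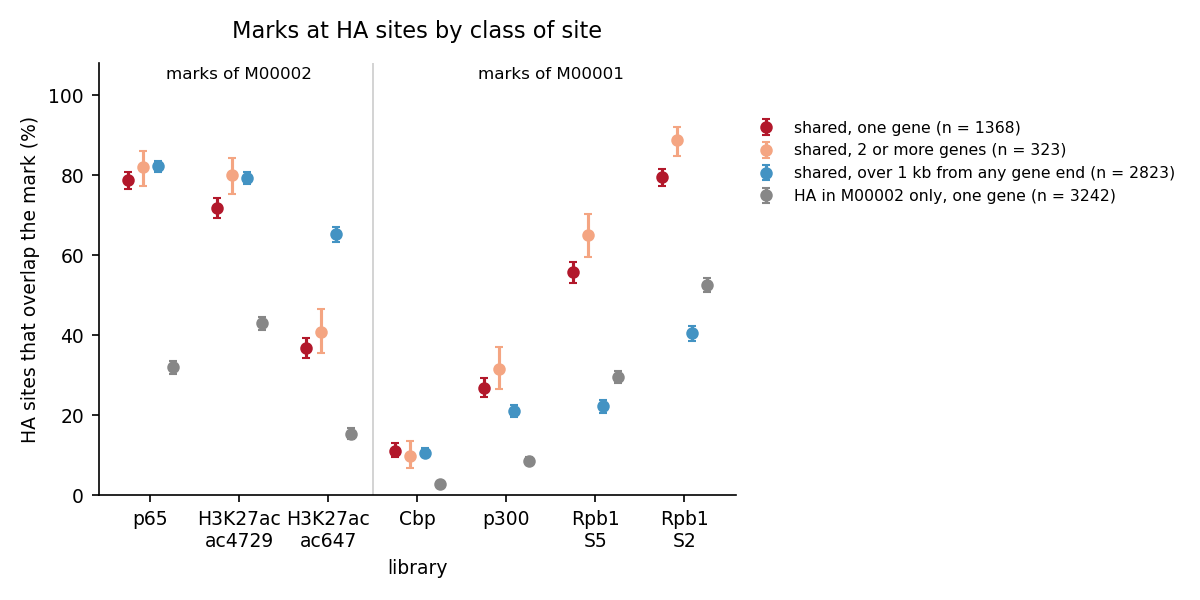
Share of HA sites (%) that overlap a peak of each mark, for shared one-gene sites, shared sites at 2 or more genes, shared sites over 1 kb from any gene end and M00002-only sites at 1 gene. Bars are 95% Clopper-Pearson intervals over sites. Shared one-gene sites reach 55.8% for S5 where distal shared sites reach 22.2%, and 36.8% for ac647 where distal sites reach 65.2%.

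Polymerase set shared one-gene sites apart from the 2823 shared sites that lay over 1 kb from any gene end. S5 overlapped 55.8% of shared one-gene sites and 22.2% of distal ones (odds ratio 4.42, 3.84 to 5.09, Fisher's exact test, adjusted p = 2.42e-100), and S2 79.5% and 40.5% (odds ratio 5.68, adjusted p = 1.75e-129). H3K27ac with ac647 ran the other way, at 36.8% of shared one-gene sites and 65.2% of distal sites (odds ratio 0.310, exact test, adjusted p = 5.49e-67). With ac4729 the difference was smaller, at 71.9% and 79.3% (odds ratio 0.667, exact test, adjusted p = 3.39e-07). p300 was at 26.9% and 21.1% (odds ratio 1.38, exact test, adjusted p = 7.41e-05), and Cbp at 11.2% and 10.6% (odds ratio 1.06, 0.856 to 1.31, adjusted p = 0.614). The median HA fold in M00002 was 9.17 at shared one-gene sites and 10.4 at distal sites. The p65 shares of 78.7% and 82.3% passed the threshold (exact test, adjusted p = 0.0104) but not within such classes of HA fold (odds ratio 0.973, adjusted p = 0.881). With mark peaks of −log10 q of at least 5 only, the Cbp shares were 1.10% and 2.76% (odds ratio 0.390, exact test, adjusted p = 0.000738) and the p300 call was lost at a like odds ratio (5.70% and 4.39%, odds ratio 1.32, adjusted p = 0.0925). With marks counted within 1000 bp of the summit, a setting chosen after seeing the data, the p65 and ac4729 calls were lost (83.3% and 85.5% for ac4729, exact test, adjusted p = 0.0852).

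H3K27ac peaks of both antibodies overlapped 468 shared one-gene sites (34.2%), ac4729 alone 515 (37.6%), ac647 alone 35 (2.56%) and neither 350 (25.6%). At sites with ac4729 alone, S2 was present at 86.2%, and at sites with both antibodies at 70.1%. Among the 350 sites without either, S5 was present at 53.1% and S2 at 83.1%, against 55.8% and 79.5% of all shared one-gene sites. H3K27ac was measured in M00002 and polymerase in M00001, and that difference between lines cannot be told apart from a difference between sites. Widening the search changed the ac647 share more than the others: within 250 bp of the HA summit 45.0% of shared one-gene sites had an ac647 peak, against 69.9% of distal sites.

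Shared one-gene sites and the 323 shared sites at 2 or more genes did not differ past the threshold in p65, ac647, Cbp or p300. The interval of the odds ratio was 0.582 to 1.11 for p65, 0.652 to 1.09 for ac647, 0.760 to 1.77 for Cbp and 0.609 to 1.05 for p300. The shares were lower at 1 gene for ac4729 (71.9% and 80.2%, Fisher's exact test, adjusted p = 0.00331), S5 (55.8% and 65.02%, adjusted p = 0.00408) and S2 (79.5% and 88.9%, adjusted p = 0.000144). With HA peaks of −log10 q of at least 5 only, 649 and 147 sites were left and the calls of S5 (odds ratio 0.868, against 0.679 over all sites, exact test, adjusted p = 0.643) and S2 (odds ratio 0.533, against 0.485, adjusted p = 0.0611) were lost, and with cover of at least 50% of the HA peak the ac4729 call was lost (adjusted p = 0.195).

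Polymerase peaks were more frequent at shared one-gene sites at a gene start than at the far end. S5 overlapped 59.4% of 1052 start sites and 22.1% of 68 far-end sites (odds ratio 5.16, 2.82 to 10.0, Fisher's exact test, adjusted p = 4.43e-09), and S2 82.3% and 47.1% (odds ratio 5.23, adjusted p = 9.19e-10). H3K27ac with ac647 overlapped 35.3% of start sites and 58.8% of far-end sites (odds ratio 0.382, exact test, adjusted p = 0.000284), a call that was lost with HA peaks of −log10 q of at least 5 only (adjusted p = 0.140). p300 was at 28.6% and 16.2% (exact test, adjusted p = 0.0363), and this call was lost with 250 bp windows, with stricter HA peaks and with stricter p300 peaks. p65 was at 78.9% and 83.8% (exact test, adjusted p = 0.499). Of the 68 far-end sites, 2 overlapped a RefSeq promoter window of any gene, against 784 of the 1052 start sites. The rule allows no end of another protein-coding gene within 1 kb, for start and far-end sites alike. Its part in the far-end count was not tested. Far-end sites included Prkcd and Ccdc159, named above, and Junb, an AP-1 subunit, with HA at 15.1 in M00002 and 11 in M00001 and p65 at 16.2.

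At shared one-gene sites at a gene start, the summits of HA, p65 and polymerase stood just upstream of the start, and those of H3K27ac to either side. For each other library only the peak of highest fold that overlapped the HA peak was taken. The start was the RefSeq start of the gene nearest the HA summit. This choice in part places the other summits near the HA summit, and peaks elsewhere at the gene were left out. The HA summit of M00002 lay at a median of −92.5 bp from the start, and 73.0% of the 1052 summits were upstream of it. The p65 summit lay at a median of −101.5 bp and within a median of 21 bp of the HA summit, and the HA summit of M00001 within 36 bp. S2 summits were 72 bp away, Cbp 70.5 bp, S5 83 bp and p300 99 bp. H3K27ac summits were 187.5 bp (ac4729) and 182 bp (ac647) from the HA summit, and only 9.84% and 7.01% of them came within 50 bp of it, against 75.4% for p65. The HA and p65 peaks of M00002 were narrower than the others, and the lists of these 2 targets carry a 120 bp mark of unstated meaning in their names.

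**Figure D4:**
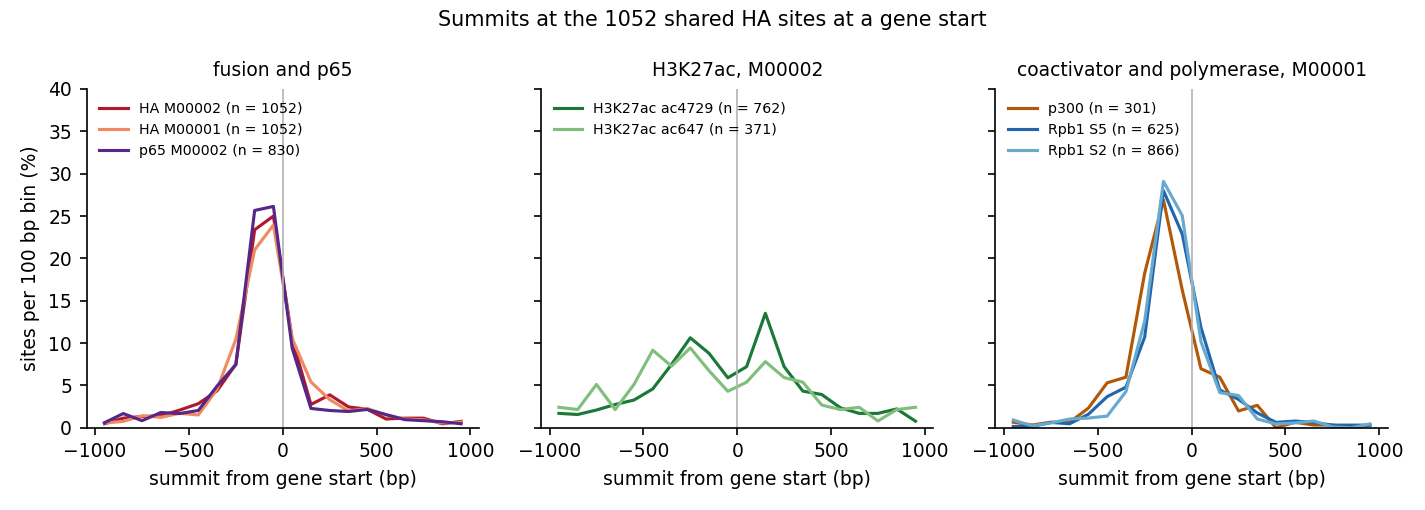
Position of peak summits relative to the gene start (bp, negative upstream) at the 1052 shared one-gene sites at a start, as the share of sites (%) in 100 bp steps, by library. Only peaks that overlap the HA peak of M00002 are counted, and the start is the one nearest the HA summit. HA, p65, p300 and polymerase summits gather just upstream of the start, while H3K27ac summits form shoulders on both sides.

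The 291 shared one-gene sites without a p65 peak had weaker HA and fewer coactivator peaks. Their median HA fold in M00002 was 5.36, against 10.5 at the 1077 sites with p65. In the lowest class of HA fold 35.8% of sites had p65, and in the highest 99.6%. Over sites with both, p65 fold followed HA fold of M00002 with a Spearman correlation of 0.81 (n = 1077), while the other marks of M00002 did not follow it closely (−0.05 for ac4729, n = 983, and 0.18 for ac647, n = 503). p300 was at 29.6% of sites with p65 and 16.8% of those without (odds ratio 2.08, 1.48 to 2.96, Fisher's exact test, adjusted p = 1.78e-05), S5 at 58.0% and 47.4% (adjusted p = 0.00237), ac647 at 39.2% and 27.8% (adjusted p = 0.000676) and Cbp at 12.6% and 5.84% (adjusted p = 0.00133). Within the 5 classes of HA fold the p300 and S5 differences still passed the threshold (Cochran-Mantel-Haenszel test over sites, n = 1077 and 291, adjusted p = 0.00548 and 0.0306), and those of ac647 (odds ratio 1.28, adjusted p = 0.263) and Cbp (odds ratio 1.92, adjusted p = 0.102) did not. With HA peaks of −log10 q of at least 5 only, 23 sites without p65 were left and all 4 calls were lost by the exact test, with odds ratios of 3.51 for p300, 1.60 for ac647 and 0.841 for S5, and no Cbp peak at the 23 sites. ac4729 (73.0% and 67.7%, exact test, adjusted p = 0.106) and S2 (79.9% and 78.0%, adjusted p = 0.563) did not pass the threshold. The ac4729 difference did pass with mark peaks of −log10 q of at least 5 (odds ratio 1.58) and with gene windows of 500 bp (1.38) or 2 kb (1.45), and the S2 difference with 500 bp (1.48), while within the classes of HA fold both odds ratios were below 1 (0.866 and 0.991).

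Cbp, p300 and S5 peaks were more frequent at the shared one-gene sites with the strongest HA, by the HA fold of either line. From the lowest to the highest of 5 equal classes of HA fold in M00001, the share with p300 was 20.1%, 19.8%, 22.6%, 29.3% and 42.7%. Over the same classes the share with S5 was 50.4%, 48.7%, 52.2%, 56.0% and 71.5%, and that with Cbp was 8.39%, 8.06%, 9.12%, 11.4% and 19%. For these marks the shares of the lower 3 classes lay within a few percentage points of each other, and the peaks of the upper classes were also wider (a median of 266 bp in the highest and 174 bp in the lowest). The share with S2 was 77.4%, 73.3%, 81.8%, 78.8% and 86.1%, with no steady order. In the lowest and the highest class of HA fold in M00002, p300 was at 22.3% and 36.1%, S5 at 51.8% and 62.8%, and Cbp at 8.03% and 19%.

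**Figure D5:**
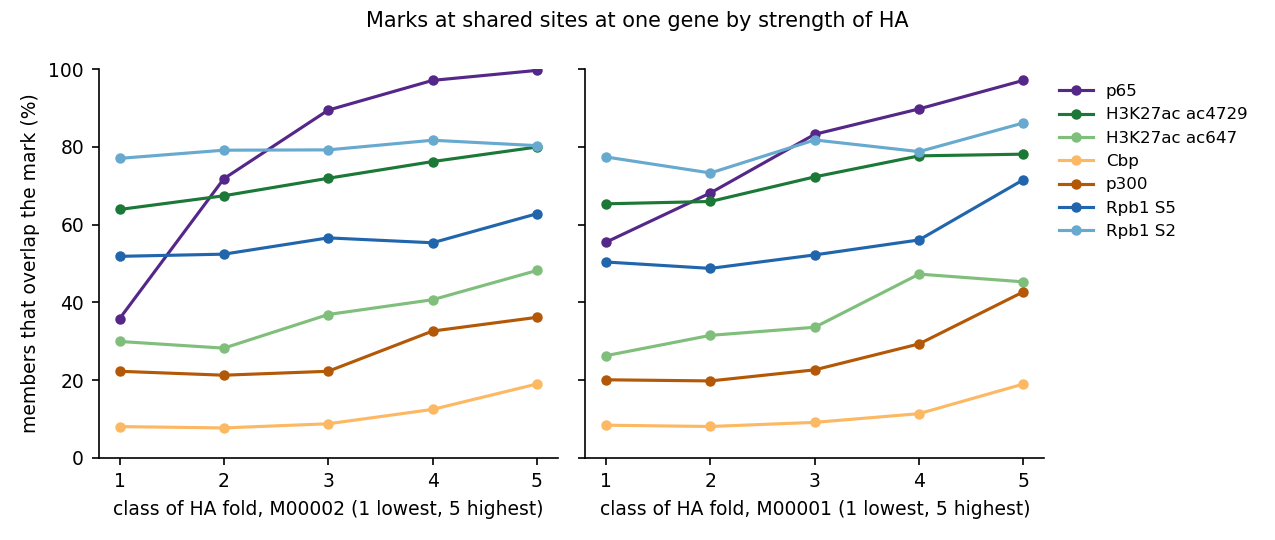
Share of shared one-gene sites (%) that overlap each mark, by 5 equal classes of HA fold enrichment in M00002 (left) and in M00001 (right), with 273 or 274 sites a class. p65 climbs from 35.8% to 99.6% over the classes of M00002, and p300 reaches 42.7% in the highest class of M00001.

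Among shared one-gene sites, p300 and Cbp peaks went together with S5. S5 was present at 89.4% of the 94 sites with both coactivators, 81.0% of the 274 with p300 alone, 64.4% of the 59 with Cbp alone and 44.5% of the 941 with neither. S5 and S2 occurred together at 735 sites, S2 alone at 352, S5 alone at 28 and neither at 253. The 4 libraries share a code in their titles, and the part of a common preparation in this pattern was not tested. In the most frequent pattern, p65, ac4729, S5 and S2 were present without the other 3 marks (120 sites). All 7 marks stood together at 34 sites, with a median HA fold of 13.1 in M00002, and none at 20 sites, with a median of 5.18.

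Sites with the strongest coactivator and polymerase peaks were at genes of several functions. Inpp5a, an inositol phosphate phosphatase, had a fold enrichment of 6.90 (Cbp), 7.08 (p300), 8.69 (S5) and 12.5 (S2), with HA at 16.0 in M00002 and 9.47 in M00001. Vcl, which encodes vinculin of focal adhesions, had Cbp at 6.75, p300 at 6.71, S5 at 8.5 and S2 at 9.74, with HA at 15.3 and 6.14. Mtmr4, a lipid phosphatase of the myotubularin family, had 6.58 for Cbp and 9.18 for S5 with HA of only 5.35 and 3.98. Of the 8 sites highest over all 7 marks, that of Txn1, the redox protein thioredoxin, had p65 at 9.70, ac4729 at 8.24, ac647 at 9.92, Cbp at 4.43, p300 at 5.25, S5 at 9.26 and S2 at 8.10. Its HA values were 11.3 and 3.48. Vcp, an AAA ATPase of protein quality control, had p65 at 7.07, ac647 at 8.88 and S5 at 8.80. Cd82, a tetraspanin, carried 2 such sites 215 bp and 0 bp from its start, with HA at 13.5 and 12.8 in M00002, and both lay over 1 HA peak of M00001 (8.79).

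Of the 10 sites highest in p65 and H3K27ac, 9 had S2, 4 had p300 and 1 had Cbp. Over all shared one-gene sites the shares were 79.5%, 26.9% and 11.2%, and 10 sites are too few to be set apart from them. Zhx3, a zinc finger and homeobox repressor, had p65 at 20.1, ac4729 at 11.5 and ac647 at 12.1, with an S2 peak (7.05) and no Cbp, p300 or S5 peak. Srrm1, a splicing coactivator, had the highest ac647 value of the named sites (15) with ac4729 at 8.19 and p300 at 3.24. Slc25a24, a mitochondrial carrier, had p65 at 12.5 and ac647 at 10.1 and, of the marks of M00001, only S2 (3.42). Nfatc3, a transcription factor of calcium signalling, had p65 at 13.6 and ac647 at 10.6 with p300 at 4.03. The Cbp peak was that of Arhgef19 (4.99), the 1 site of the 10 without S2.

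The 5 genes with 3 sites each had several narrow HA peaks of M00002 within 1 kb of the same gene end. At Cand1, an exchange factor of cullin ubiquitin ligases, the sites lay 40, 445 and 777 bp from the start with HA of 7.21, 11.9 and 5.15 in M00002, over M00001 peaks of 3.78, 6.86 and 6.86. At Sertad3, the sites had HA of 4.03, 15.4 and 11.4, and Cbp (3.77) overlapped the strongest alone. At Ccm2, Grm4 and Abhd11 the strongest site had HA of 12.9, 15.9 and 10.5. These sites share marks and often 1 M00001 peak, so they are not independent of each other.

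Shared one-gene sites stood at 9 of 20 genes in a list of NF-kappaB subunits, inhibitors and feedback regulators (45%), against 5.68% of all protein-coding genes. These lists were written with earlier results of these data known, so the counts are a description. The 9 genes were Nfkbia, Nfkbie and Nfkbiz, which encode IkappaB family proteins, Relb, a subunit, the deubiquitinase Cyld, the kinase Map3k14 (NIK), the ubiquitin ligase Birc3, the receptor adaptor Traf2, and Tnip1, a partner of A20. Nfkbie had HA at 19.3 in M00002 and 9.45 in M00001 with p65 at 12.7, S5 at 3.96 and S2 at 4.05, and no H3K27ac peak. Cyld had HA at 15.2 and 10.3 with p65 at 17.8, the highest of this group, and Cbp at 3.43. Relb had HA at 14.6 and 5.16 with both H3K27ac antibodies (6.56 and 5.63), Cbp (3.46), S5 (7.88) and S2 (7.76). Birc3 had HA at 14.1 and 4.97, p65 at 11.2 and both H3K27ac antibodies, but no polymerase peak. Nfkbia had HA at 11.6 and 7.83 and p65 at 9.68. A p65 peak was present at 8 of the 9 genes, all but Nfkbiz, and p300 at 1, Map3k14 (4.68). The shares over all shared one-gene sites were 78.7% for p65 and 26.9% for p300, and 9 genes are too few to be set apart from them.

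Chemokine and adhesion genes that NF-kappaB is known to induce followed, with 4 of 14 (28.6%), against 5.68% of all protein-coding genes. Cxcl2 and Cxcl1, neutrophil chemokines that neighbour each other on chromosome 5, had HA at 19.3 and 18.7 in M00002 and 6.20 and 6.61 in M00001. Cxcl1 carried p300 (3.32), S5 (5.71) and S2 (3.16), and Cxcl2 carried none of the marks of M00001. Icam1, an adhesion molecule, had HA at 17.1 and 4.37 with p65 at 15.4. Csf1, the macrophage growth factor, had a site at each end: at the start HA was 14.6 and 7.12 with p65 at 12.8, and at the far end HA was 6.07 and 3.48 with p65 at 4.80. In the list of MHC class I presentation 2 of 12 genes had a site (16.7%), the regulator Irf1 (HA 21.4 and 7.85, p65 13.9) and H2-D1 (HA 15.3 and 7.06, p65 13.7). This count is too small to be set apart from the background of 5.68%.

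Immediate early factors and regulators of transcription also carried sites, at 5 of 16 AP-1 and Ets genes (31.2%) and 5 of 20 coactivators and acetyl readers (25%). The share was 5.68% of all protein-coding genes and 40% in the housekeeping list. Etv5, an Ets factor downstream of growth factor signalling, had HA at 22.0 and 9.22, p65 at 14.4 and peaks of all 7 marks, with Cbp at 5.62 and p300 at 5.21. Jun had HA at 18.7 and 11.4 and p65 at 14.9 with S5 (4.23) and S2 (3.74) but no H3K27ac. Egr1 had HA at 15.2 and 10.2 with all 7 marks and p300 at 6.29. Ep300, which encodes p300 itself, had HA at 23.6 and 8.91 and p65 at 15, at 794 bp from its start, with S5 (4.74) and S2 (4.51) but no p300 peak. Med12, of the Mediator kinase module, had HA at 15.9 and 9.45, and Kat7, a histone acetyltransferase, had 10.2 and 6.73. Kat6a, also a histone acetyltransferase, had 7.09 and 2.98, and its M00001 peak had a −log10 q of only 0.11.

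In the lists of cell lineage the counts were too small to be set apart from the background of 5.68%. Of 10 radial glia genes 2 had a site (20%): Sox9, a transcription factor of glial progenitors, had HA at 16.3 and 7.29 with p65 at 8.56 and no mark of M00001, and Vim, the intermediate filament vimentin, had HA at 5.21 and 7.21 with all 7 marks. Ccno, needed for making multiple cilia, was the only 1 of 10 ependymal genes (HA 9.96 and 4.88). Of 17 genes in a list for ependymomas with the fusion, Etv5, Wwc1 and Notch1 had sites. Notch1 was weak, with HA at 5.66 and 4.49, no p65 and no H3K27ac peak, and S5 at 3.70. No shared one-gene site was found at the genes of the lists for neurons, oligodendrocytes, astrocytes, endothelium, receptor tyrosine kinases, cytosolic ribosomal proteins or imprinted genes. These lists hold 8, 8, 6, 6, 16, 28 and 14 genes, and 0 of so few does not show that their shares lie below the background.

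Widely expressed genes also carried sites. Of 15 housekeeping genes 6 did (40%), close to the share in the NF-kappaB list, among them Eef1a1 (HA 12.7 and 10.1), Eno1 (12.4 and 8.94), Ppia (10.2 and 6.62), Gapdh (9.20 and 10.2) and Pgk1 (8.18 and 9.24). All 6 had p65, and 5 had S5, against 78.7% and 55.8% of all shared one-gene sites. Of 20 genes of translocation and glycosylation in the endoplasmic reticulum 3 had a site, among them Ddost and Sec61a1 of the top group. Of 24 proteasome subunits 1 had a site, Psmb6, with HA at 2.99 and 3.48. In the G1 cell cycle list 3 of 16 genes did, Ccne1 (HA 8.30 and 6.81), E2f1 (5.03 and 3.23) and Cdk4 (4.97 and 3.91), all with p65, S5 and S2. The counts of the endoplasmic reticulum, proteasome and G1 lists were too small to be set apart from the background of 5.68%. The lists for Notch, Hedgehog, TEAD and YAP, potassium channels, and microglia and leukocytes, of 16, 12, 13, 15 and 8 genes, each held 1 gene with a site (Notch1, Smo, Tead2, Kcnn1 and Tmem119), and 1 gene in lists this short cannot be set apart from the background of 5.68%.

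A small set of sites had HA in both lines and none of the 7 marks. The strongest of these 20 was at Dpep1, a membrane dipeptidase, with HA at 9.22 in M00002 and 4.26 in M00001. Others were at Tram2 (7.30 and 5.19), Camk2n2, an inhibitor of the kinase CaMKII (7.19 and 3.98), and Hlx, a homeobox factor (5.90 and 8.06). Their median HA fold of 5.18 in M00002 and 4.25 in M00001 lay in the lower range of the shared one-gene sites.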

How the data were processed

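Each library was deposited as 1 peak list, called per sample. The submitters' processing notes name Trim Galore and FastQC, Bowtie2 2.3.5.1, MACS2 and deepTools with mm10 as the build, and no settings. For each peak the deposited lists give the fold enrichment, a ratio of the summit's signal to a background set by the authors' peak caller, and a −log10 p-value and −log10 q-value. Neither a control for calling nor a use of the spike-in in the labels' protocol is stated. With no read counts in the lists, depth is unknown, and a missing peak does not show that a target was absent.

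Gene ends came from the RefSeq gene table (GRCm38.p6), which covers 21631 protein-coding genes. Strand and sequence came from the RefSeq promoter table, which covers 17274 of them. Sites were compared on chromosomes 1 to 19 and X with an overlap of at least 1 bp. Shares carry 95% Clopper-Pearson intervals, and classes were compared by Fisher's exact test, two-sided, with Benjamini-Hochberg adjustment over 34 tests and a threshold of 0.05 (SciPy 1.17.1, statsmodels 0.14.6, pandas 2.3.3, Python 3.11.15). Neighbouring peaks are not independent, so these p-values may be too small. The tests were checked on simulated data. Motifs were counted on both strands without a test. The alternatives varied overlap, thresholds, windows, HA fold and peaks per gene.

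Named sites were the 15 highest in HA in both lines by mean percentile within a list, the 10 highest in p65 and H3K27ac, the 10 highest in Cbp, p300, S5 and S2, the 8 highest over all 7 marks, up to 4 genes of each gene list by HA, the 3 sites on each side of the 1 kb limit, the 8 highest in HA without any mark and the 5 genes with most sites. A few further list genes (among them Nfkbia, Map3k14, Gapdh and Pgk1), the far-end site of Csf1 and 6-letter and 8-letter words were chosen after their values were seen. The sites and gene lists were chosen with earlier results of these data known. The gene symbol Zfta was not in the annotation used here.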

Additional observations from a re-analysis of the deposited data

How the results depend on the processing

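Of 345 alternative values, 295 kept both the direction and the side of the threshold. The 14 results that did so under every alternative planned included all 7 marks at shared one-gene sites against M00002-only sites, ac647, S5 and S2 against distal sites, and S5 and S2 at starts against far ends. No paired analysis was possible because each target has 1 library and the comparisons run over sites. Odds ratios that changed are given by setting, with the cause not tested. The number of sites was 649 with HA of −log10 q of at least 5 in both lines.

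With HA so limited, calls were lost for S5 (0.868) and S2 (0.533) against sites at 2 or more genes, for ac647 (0.519) and p300 (1.99) at starts against far ends, and for ac647 (1.60), p300 (3.51) and Cbp (7.83, with 0.5 added to each cell because a cell was empty) with p65 against without. Directions turned for p65 (1.16) and Cbp (0.815) against 2 or more genes, p65 (1.42) and Cbp (0.951) against distal sites, p65 (1.70) and Cbp (0.826) at starts, and S5 (0.841) and S2 (0.646) with p65. With mark peaks so limited, directions turned for Cbp against distal sites (0.390) and 2 or more genes (0.705) and for ac4729 at starts (1.08), calls were lost for p300 against distal sites (1.32) and at starts (1.31) and Cbp with p65 (2.36), and ac4729 with p65 gained one (1.58).

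With 50% cover, calls were lost for ac4729 against 2 or more genes (0.824) and for Cbp (1.35) and ac647 (1.22) with p65, p65 against 2 or more genes gained one (0.714), and Cbp turned against distal sites (0.940) and at starts (0.875). With 250 bp windows, S2 with p65 turned (0.904) and p300 at starts was lost (1.83). With 1000 bp windows, added after seeing the data, p65 (0.913) and ac4729 (0.843) against distal sites were lost, ac4729 with p65 was gained (1.84) and S2 with p65 turned (0.959). With gene windows of 500 bp, ac4729 (1.38) and S2 (1.48) with p65 and ac4729 at starts (0.307) were gained. With 2 kb, p300 against 2 or more genes (0.777), ac4729 with p65 (1.45) and at starts (0.495) were gained, p65 against distal sites was lost (0.856) and Cbp against distal sites turned (0.972). Within classes of HA fold, p65 against distal sites (0.973) and ac647 (1.28) and Cbp (1.92) with p65 were lost, and ac4729 (0.866) and S2 (0.991) with p65 turned. With 1 peak per gene, Cbp at starts turned (0.872), as it did without mark peaks that overlap IgG (0.984).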
